A study of Mus musculus with 4 samples.

Results

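The genes described here are 38 genes of the interferon response and of antigen presentation by class I molecules of the major histocompatibility complex (MHC), measured by RNA sequencing in mouse C2C12 myotubes. They are given by a list of gene symbols, and all 38 were found among the 45777 genes of the deposited table. C2C12 is a myoblast line from C3H mouse muscle, and its cells fuse into multinucleate myotubes in low serum. The series compared 2 ways of imitating exercise in these cultures, each with a control of its own, with 1 library in each of the 4 groups. The groups were myotubes given clenbuterol, a β2-adrenergic agonist, a control for clenbuterol, myotubes under EPS and a control for EPS. The labels do not spell out EPS, taken here to mean electrical pulse stimulation. All 4 groups were the same line in DMEM with 2% horse serum. The treatment field of every library, controls included, reads 30 ng/ml clenbuterol, so the groups rest on the titles. No exposure time or pulse setting was known here.

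The EPS titles conflict with the data names. Data named EPS belong to the record whose title says control, and the reverse holds for the other record. Groups follow the titles below, and if the data names are the right ones, each EPS direction is the opposite of the one given. Each group being a single library, conditions could not be tested against each other, and differences are described by size.

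Interferons are cytokines that cells release when sensors such as RIG-I and MDA5 detect foreign RNA. They bind receptors whose JAK kinases activate STAT proteins, and complexes with STAT2 and IRF9 bind the interferon-stimulated response element (ISRE) in the promoters of induced genes. Interferon-γ acts through the gamma-activated site (GAS). Among the induced genes are antiviral effectors and the class I pathway, in which the immunoproteasome cuts peptides, the TAP transporter moves them into the endoplasmic reticulum, and class I heavy chains with β2-microglobulin carry them to the surface. Skeletal muscle fibres display little class I protein at rest and more of it in inflammatory myopathy.

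Some of these genes carry the letters of the interferon elements in their promoters. RefSeq promoter sequences (GRCm38.p6, 250 bases before to 50 bases after each start) were matched to 31 of the 38 genes by symbol. The ISRE core, taken as GAAA followed after any 2 bases by GAAA, was searched on both strands. It was found in the promoters of 10 of these 31 genes (32.3%), against 3.99% of all 27025 genes with a promoter. The GAS core TTCNNNGAA, which reads the same on both strands, was found in 5 of 31 (16.1%), against 9.55% of all genes. In Bst2 a GAS core and an ISRE core overlap by 3 bases. A match describes letters and not a bound site, and the sequences are of C57BL/6J, not of the C3H strain behind C2C12. The stretches below, from 6 genes whose levels differ widely, lie before the start that RefSeq's promoter table uses. Those of Ifit3 and Irf1 lie inside the gene as the expression table places it, from an earlier start. Capitals mark the cores in the direction of the gene, TTTC followed after 2 bases by TTTC being an ISRE core on the other strand.

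Isg15, chr4:156200863-156200908, minus strand, 3 overlapping ISRE cores: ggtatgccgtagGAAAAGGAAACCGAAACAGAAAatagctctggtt

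Ifit1, chr19:34640773-34640825, plus strand, 2 ISRE cores: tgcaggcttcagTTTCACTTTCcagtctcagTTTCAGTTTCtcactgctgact

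Ifit3, chr19:34583361-34583428, plus strand, 2 ISRE cores: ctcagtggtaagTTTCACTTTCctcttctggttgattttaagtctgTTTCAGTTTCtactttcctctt

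B2m, chr2:122147536-122147569, plus strand, 1 ISRE core: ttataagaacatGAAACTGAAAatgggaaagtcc

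H2-T23, chr17:36032804-36032837, minus strand, 1 ISRE core: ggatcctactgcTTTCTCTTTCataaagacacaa

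Irf1, chr11:53769912-53769944, plus strand, 1 GAS core: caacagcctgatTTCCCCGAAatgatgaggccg

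Levels are given in TPM, the deposited length-scaled values, which are scaled per length and can be compared between genes. Folds are ratios of CPM, the estimated counts scaled to library size, each with a 95% interval that covers counting error only. Total estimated counts ran from 32640884 to 35597074, and a library with 0 counts for a gene allows up to 3 counts, a CPM of 0.0830 to 0.0921. The 7 myotube markers were all present, with a summed TPM of 9704 to 15488. Among the immune cell markers Ptprc, Adgre1 and Cd3e had 0 counts in all 4 libraries, and only Cd68 reached a TPM of 1. Endothelial and adipocyte markers stayed below a TPM of 1 in every library.

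In all 4 libraries Isg15, Ifit1, Usp18 and Rsad2 were low or at 0 counts beside abundant class I transcripts, and most interferon genes had 0 counts. Other interferon-induced genes, such as Ifi27, were abundant. Of the 38 genes, 24 reached a TPM of 5 in at least 1 library, 9 peaked between 1 and 5, and 5 stayed under 1 everywhere (Usp18, Rsad2, Psmb8, Psmb9 and Nlrc5). Together they made up 0.123% to 0.137% of all TPM. For the 24 genes reaching a TPM of 5, the highest library stood 1.03-fold to 1.66-fold above the lowest, with a median of 1.27-fold. In 20 of these 24 (83.3%) that spread was under 1.5-fold, against 77.5% of all 11221 genes at such levels that had no library at 0. The other 4 were Stat2, Ifi35, Ddx58 and Dtx3l.

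**Figure D1:**
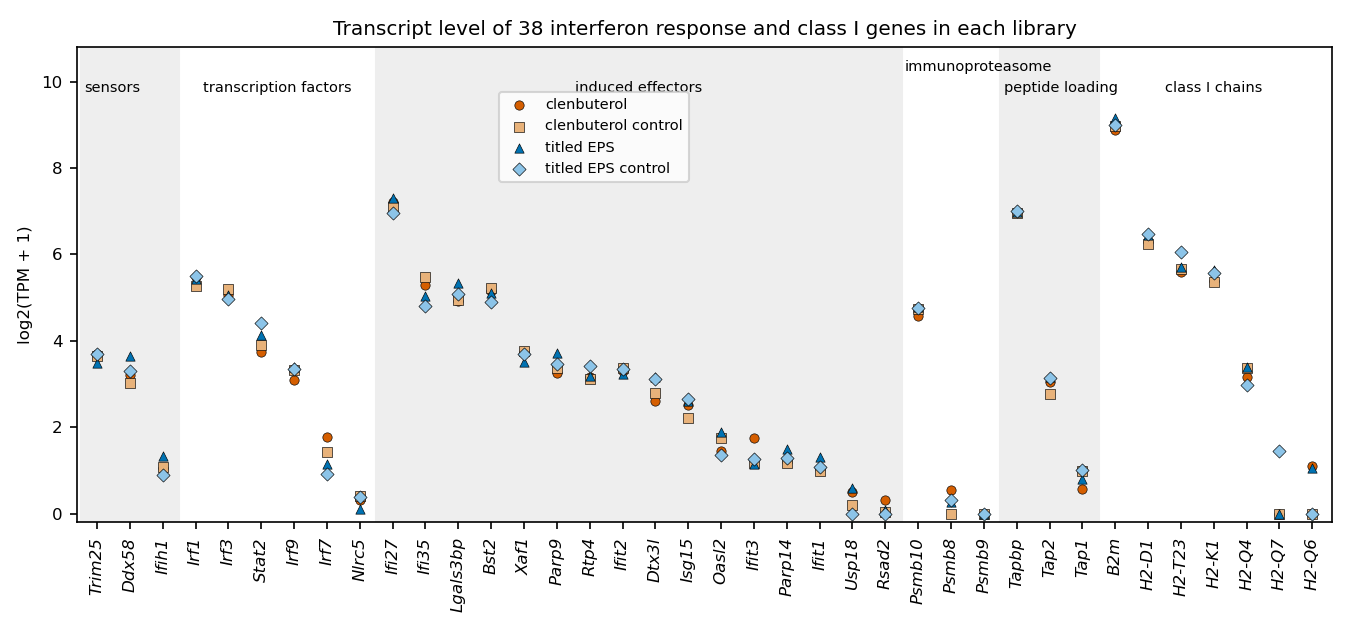
Level of each of the 38 genes as log2(TPM + 1) on the vertical axis, with genes grouped by role along the horizontal axis and 1 symbol per library. B2m, Ifi27, Tapbp and H2-D1 lie at the top, Usp18, Rsad2, Psmb8, Psmb9 and Nlrc5 lie at or near 0, as do H2-Q6 and H2-Q7 in the libraries where they have 0 counts, and the 4 libraries lie close together for most genes.

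The sensors were present at unequal levels. Ddx58, which encodes RIG-I, stood at a TPM of 8.29 with clenbuterol, 7.12 in that control, 11.5 in the library titled EPS and 8.87 in its control by title. Ifih1, which encodes MDA5, had 1.10, 1.13, 1.51 and 0.873 in the same order. For both sensors the library titled EPS was the highest of the 4. Trim25, the ubiquitin ligase that activates RIG-I, stood between 10.1 and 12.02.

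Transcription factor genes split into a well expressed and a scarce group. Irf1, which drives interferon-γ and class I genes, had TPM values of 43.8, 37.6, 42.4 and 44.6 in the same order. Irf3, a factor activated downstream of the sensors, had 32.4, 35.8, 32.5 and 30.6. Neither pair of libraries stood apart from the other in these 2 genes. Stat2 had 12.3, 14.0, 16.6 and 20.4 and Irf9 had 7.55, 9.10, 9.56 and 9.17. For both the EPS pair lay above the clenbuterol pair in TPM, as for 34.7% of all genes. The nearest libraries for Irf9 stood at 9.17 against 9.10. In CPM the pairs overlapped for Irf9, with 9.50 in the titled EPS control and 9.79 in the clenbuterol control. Irf7, the factor that amplifies type I interferon, was scarce at 2.45, 1.70, 1.22 and 0.893, from 66, 47, 35 and 24 counts, with the clenbuterol pair above the EPS pair. Nlrc5, the transactivator of class I genes, had 27, 37, 10 and 33 counts, a TPM of at most 0.333.

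Among the 16 induced effectors the levels ran from below 1 to above 100. Ifi27, which encodes a small membrane protein of organelles, was the most abundant at a TPM of 148, 136, 157 and 123. Ifi35, Bst2 (tetherin, which holds budding virus on the cell) and Lgals3bp (a secreted galectin-3 ligand) stood between 27.2 and 43.7. The other 8 effectors with at least a TPM of 1, apart from Isg15 and Ifit1, lay between 1.22 (Ifit3) and 12.6 (Xaf1). Classical indicators of an active response were low. Isg15, the ubiquitin-like modifier, had a TPM of 4.72, 3.63, 5.14 and 5.28, and Ifit1, a binder of foreign RNA, had 1.06, 0.997, 1.48 and 1.13. Usp18, which removes ISG15 and blocks the receptor, had 11, 4, 15 and 0 counts, and Rsad2, which encodes viperin, had 14, 2, 4 and 0. Isg15 and Ifit1 carry 3 and 2 ISRE cores in the sequences printed above, and B2m carries 1.

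The class I pathway was unevenly supplied. B2m, the light chain of every class I molecule, had TPM values of 473, 499, 566 and 510. Of the heavy chains, the classical H2-D1 had 77.1, 75.3, 86.5 and 88.2 and H2-K1 had 40.8, 40.3, 48.8 and 46.6. H2-T23, which encodes Qa-1, a ligand of receptors on natural killer cells, had 47.6, 49.9, 51.4 and 65.7. In TPM both EPS libraries lay above both clenbuterol libraries in all 4 of these genes, as in 34.7% of all genes. In CPM, where 30.7% of all genes did so, this held in all but B2m. There the library titled EPS control (184) lay below the clenbuterol control (186). The pairs overlapped in TPM for the remaining chain genes, H2-Q4, H2-Q6 and H2-Q7. H2-Q4, a nonclassical chain gene, stood between 6.88 and 9.51. Heavy chain genes are alike in sequence and their alleles differ between strains, so reads can be split between them and their levels are uncertain.

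Peptide supply genes ranged from 0 counts to abundant. Tapbp, which encodes tapasin, the bridge between TAP and the heavy chain, had a TPM of 125, 124, 125 and 127, the narrowest spread of the 24 genes reaching a TPM of 5 (1.03-fold). Tap2 had 7.26, 5.78, 7.997 and 7.82 while Tap1, the other subunit of the same transporter, had 0.499, 0.980, 0.749 and 1.03. Psmb10 was the only interferon-induced proteasome subunit at an appreciable level, with 22.8, 25.5, 26.4 and 26.3. Psmb8 had 8, 0, 4 and 4 counts and Psmb9 had 0 counts in every library. Psmb9 and Tap1 are neighbours on mm10 chromosome 17, at 34182030 to 34187330 and 34187556 to 34197225. The constitutive subunits that these 3 replace were abundant: Psmb5 stood between 218 and 241, Psmb6 between 304 and 360, and Psmb7 between 393 and 448. Psmb10 thus made up 4.98% to 6.28% of the summed TPM of Psmb10 and Psmb7, and Psmb8 at most 0.189% of that of Psmb8 and Psmb5.

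**Figure D2:**
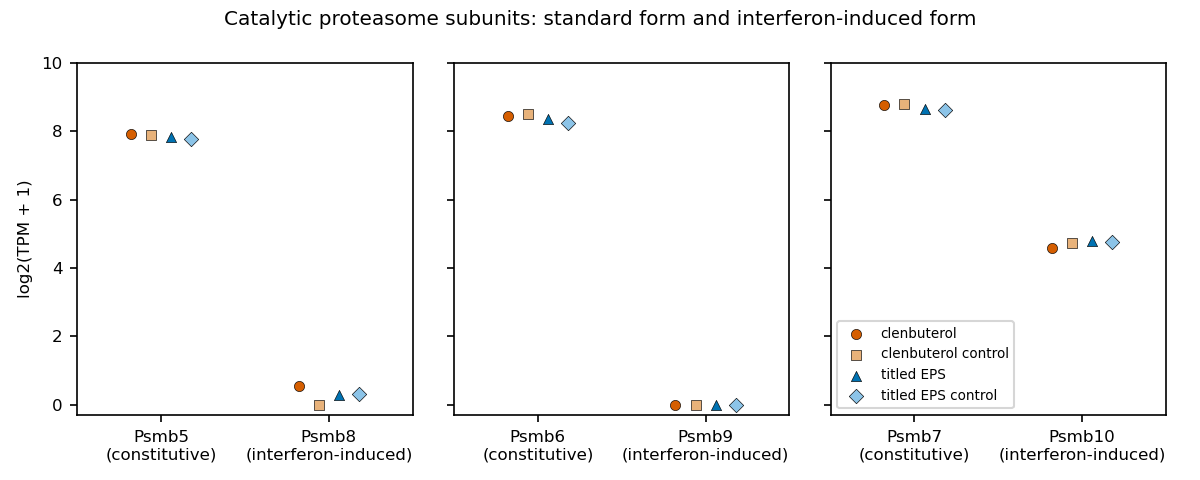
Level as log2(TPM + 1) of each constitutive catalytic proteasome subunit beside the interferon-induced subunit that replaces it, with 1 symbol per library. Psmb5, Psmb6 and Psmb7 lie far above their counterparts, Psmb9 is at 0 in all 4 libraries, and Psmb10 is the only induced subunit well above 0.

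The other genes of the pathway were read from lists chosen for their roles. Of 10 interferon genes 8 had 0 counts in all 4 libraries, including Ifnb1 and the 4 Ifna genes listed. Ifng had at most 4 counts in a library and Ifne at most 2. The receptors were present: Ifnar1 stood between a TPM of 25.9 and 31.7, Ifnar2 between 40.7 and 50.8, Ifngr1 between 36.6 and 49.5 and Ifngr2 between 52.7 and 60.5. Of 45 further interferon-induced genes, 23 reached a TPM of 1 in at least 1 library and 4 had 0 counts in all. Ifitm3 stood between a TPM of 500 and 554, near the level of B2m, and Ifitm2 between 276 and 346. Of 7 genes of class II presentation, Ciita, H2-Aa, H2-Ab1, H2-Eb1 and H2-DMb1 had 0 counts everywhere.

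The first comparison asked whether clenbuterol changed these genes. Most of them lay within 1.5-fold of their control. Of 31 genes that reached a TPM of 1 in either library, clenbuterol had 2 higher by 1.5-fold or more in TPM + 1 and 0 lower, where 2.52% of all 13788 genes were higher and 1.92% lower. In CPM + 1, where 1 of the 31 (H2-Q6) was higher, the shares of all genes were 1.30% and 0.573%. The median log2 ratio was −0.02 over the 31 genes and −0.01 over all genes, and the median size of the ratio was 0.12 against 0.09. By counting interval alone, 6 of 31 (19.4%) were higher and 4 (12.9%) lower, against 17.7% and 13.9% of all genes.

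The 2 genes past 1.5-fold were Ifit3 and H2-Q6, both scarce. Ifit3, of the IFIT family like Ifit1, rested on 69 counts under clenbuterol and 40 in the control. Its TPM was 2.38 against 1.25, and its CPM ratio 1.78 (1.19 to 2.69). The libraries titled EPS and EPS control had 1.22 and 1.40, so the clenbuterol library was the one apart. Ifit1 and Ifit2, neighbours of Ifit3 on chromosome 19, were 1.08-fold higher (0.681 to 1.72) and 1.04-fold lower (0.920 to 1.18). H2-Q6 is described with its copies below.

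Smaller differences had counting intervals that excluded 1. Irf1 was 1.20-fold higher (1.11 to 1.29), Tap2 1.27-fold higher (1.05 to 1.53), Ddx58 1.18-fold higher (1.05 to 1.33) and Ifi27 1.09-fold higher (1.02 to 1.15). Stat2 was 1.12-fold lower (1.02 to 1.24), Ifi35 1.13-fold lower (1.02 to 1.24), Irf3 1.09-fold lower and B2m 1.04-fold lower. Below the TPM filter, Tap1 had 22 counts against 43 and was 1.90-fold lower (1.11 to 3.33). Rsad2 had 14 against 2, a ratio of 7.20 with an interval from 1.65 to 65.3. Psmb8 had 8 against 0, with an interval that began at 1.76-fold higher.

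In the wider lists the restraints of cytokine signalling stood highest. Socs3, a feedback inhibitor of JAK-STAT signalling that interleukin-6 induces, had a TPM of 86.2 against 58.4, a ratio of 1.49 (1.41 to 1.57). Socs1, the inhibitor of the interferon receptors, was 1.35-fold higher (1.00 to 1.84) on 104 and 79 counts. Irf2bp2, a corepressor of IRF2, was 1.33-fold higher (1.24 to 1.42). By counting interval 6 of the 10 restraints were higher and 1 lower, the phosphatase gene Ptpn6 (1.58-fold lower, 1.07 to 2.37), against 17.7% and 13.9% of all genes. A list of further nucleic acid sensing genes, which also holds Tlr4, the receptor for lipopolysaccharide, stood on the other side. All 13 measured had log2 ratios of TPM + 1 below 0, with a median of −0.12, where 46.4% of all genes lay above 0. None reached 1.5-fold, and in CPM Traf3, Zbp1 and Ikbke were not lower. By counting interval 6 of the 13 were lower and 0 higher, against 13.9% and 17.7% of all genes. Of the sensors among the 38, Ddx58 was higher as given above. Trim25 at 1.05-fold higher (0.955 to 1.15) and Ifih1 at 1.02-fold lower (0.749 to 1.38) had intervals that included 1. Cgas, the DNA sensor, had a TPM of 1.32 against 2.04, with an interval for the CPM ratio of 1.12-fold to 2.02-fold lower. Ticam1, an adaptor of toll-like receptors, was 1.25-fold lower (1.08 to 1.45), and Tlr4 1.24-fold lower (1.16 to 1.31). Of 20 further interferon-induced genes measured outside the 38, 7 lay above 0 and 13 below, with a median log2 ratio of −0.06. By counting interval 2 were higher and 4 lower, against 17.7% and 13.9% of all genes. Irgm1 was 1.30-fold lower (1.19 to 1.42) and Ifitm2 1.11-fold higher (1.05 to 1.17). Ifitm1 had the lowest log2 ratio of that list (−0.42), on 76 and 106 counts, with a counting interval that included 1. The immune marker Cd68 moved too, with 47 counts against 85, and its part in these values was not tested.

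**Figure D3:**
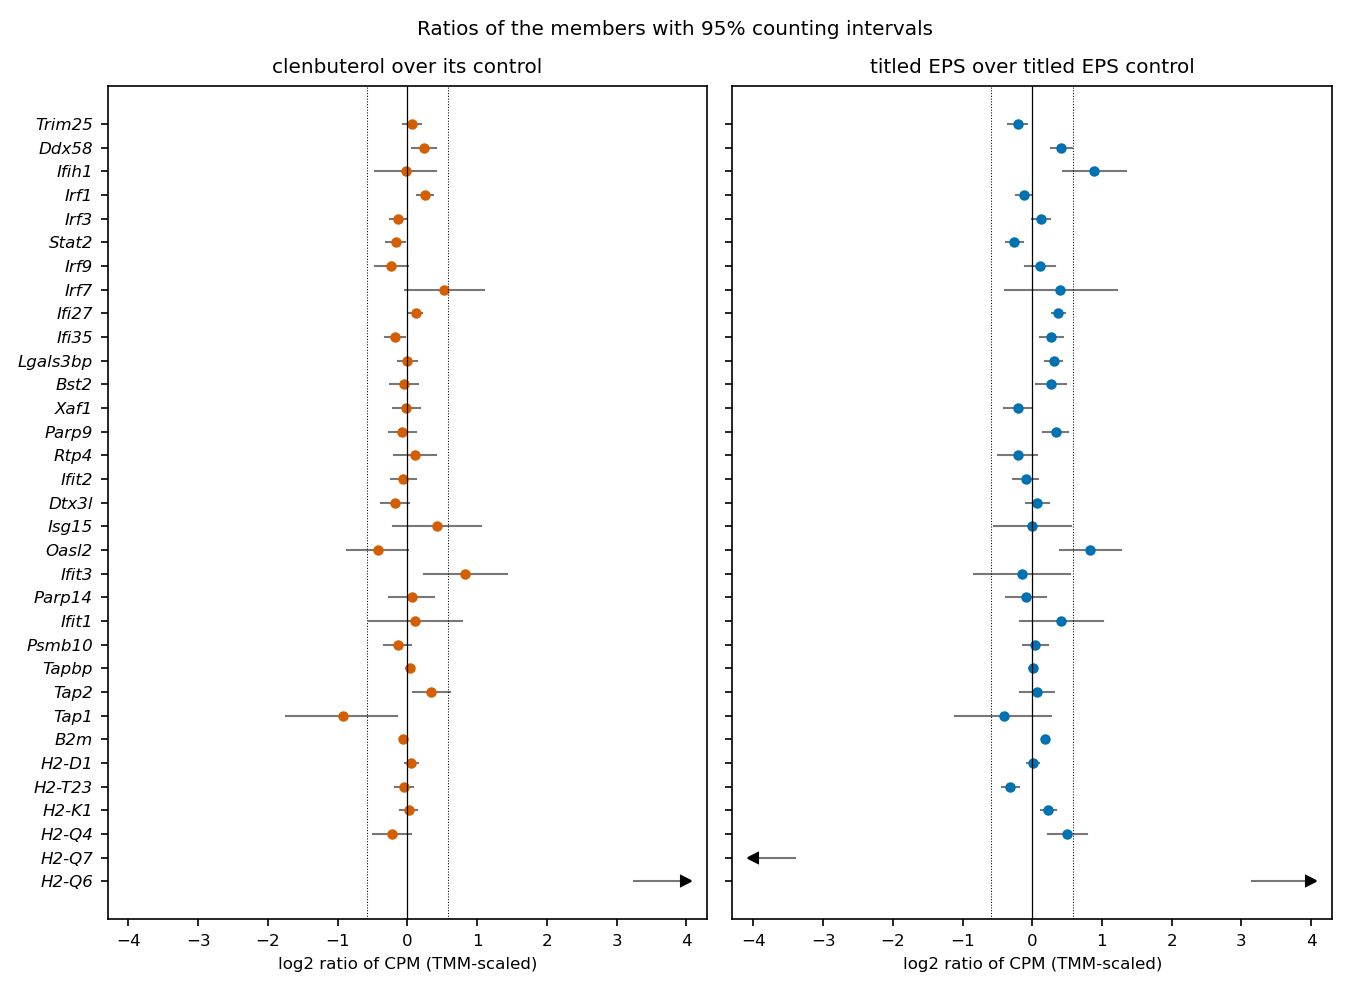
Log2 ratio of CPM for the 33 genes that reached a TPM of 1 in at least 1 of the 4 libraries, with 95% counting intervals as lines, for clenbuterol over its control (left) and for the library titled EPS over the library titled EPS control (right). Dotted lines mark 1.5-fold, black triangles mark genes with 0 counts in 1 library of the comparison, and most points lie between the dotted lines.

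The second comparison asked the same of EPS. By title, induced effectors tended to be slightly higher in the library titled EPS, with 9 of 14 log2 ratios above 0 and 5 below. Of the 3 sensors, 2 were higher by counting interval and Trim25 was lower. If the data names are right, each of these directions is the opposite under EPS. Of 33 genes that reached a TPM of 1, 1 was at least 1.5-fold higher in TPM + 1 and 1 lower (H2-Q6 and H2-Q7), where 2.34% of all 13828 genes were higher and 4.24% lower. The median log2 ratio was 0.05, against −0.02 over all genes, and its median size was 0.22 against 0.15. By counting interval 12 of 33 (36.4%) were higher and 5 (15.2%) lower, against 25.0% and 25.3% of all genes. Of the 14 induced effectors measured, 6 were higher by interval and 0 lower, with a median log2 ratio of 0.21.

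Apart from H2-Q6, the largest ratios among the 12 genes higher by interval were those of Ifih1 and Oasl2. Ifih1, on 131 and 64 counts, was 1.85-fold higher by title (1.36 to 2.53). Oasl2, which encodes a protein related to the 2′-5′-oligoadenylate synthetases, had 132 and 67 counts, 1.78-fold higher by title (1.32 to 2.42). Its TPM was 2.69 and 1.55, against 1.75 with clenbuterol and 2.36 in that control, so the clenbuterol libraries lay between. Both genes pass 1.5-fold in CPM + 1 but not in TPM + 1. Ddx58 was 1.34-fold higher (1.20 to 1.48), Ifi27 1.30-fold (1.22 to 1.38), Parp9 1.26-fold (1.12 to 1.42) and Lgals3bp 1.24-fold (1.14 to 1.35). Dtx3l, the ubiquitin ligase partner of Parp9 encoded beside it, was 1.05-fold higher (0.939 to 1.18).

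Some members stood the other way. H2-T23 was 1.25-fold lower by title (1.15 to 1.35), Stat2 1.19-fold lower (1.10 to 1.29), Trim25 1.15-fold lower (1.05 to 1.27) and Irf1 1.09-fold lower (1.01 to 1.17). Other class I genes were higher, with H2-Q4 at 1.42-fold (1.17 to 1.73), H2-K1 at 1.17-fold (1.09 to 1.27) and B2m at 1.14-fold (1.10 to 1.18). H2-D1 was level at 1.01-fold (0.948 to 1.07). Under the TPM filter, Usp18 had 15 counts against 0, with a counting interval that began at 3.24-fold higher. With the library at 0 set to a floor of 3 counts, the ratio was 4.51. Nlrc5, also under the filter, had 10 counts against 33, 3.66-fold lower (1.76 to 8.32).

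Of 22 further interferon-induced genes measured outside the 38, 9 were higher by counting interval and 2 lower, against 25.0% and 25.3% of all genes. Their median log2 ratio was 0.11, against −0.02 over all genes. The GTPase gene Irgm1 was 1.47-fold higher by title (1.35 to 1.59) and Ifi47 1.55-fold (1.23 to 1.95). Ifi44 had 50 counts against 13, 3.47-fold higher (1.86 to 6.97), and Mx2 had 18 against 38, 2.34-fold lower (1.30 to 4.35). Socs1 was 1.49-fold higher (1.05 to 2.15), while Stat3 was 1.19-fold lower (1.16 to 1.23). The myotube markers moved in the same comparison. All 7 were lower by title, with a summed TPM of 9704 against 13934, and all 3 markers of dividing cells were higher, 221 against 200.3. The 4 myoblast markers summed to 490 against 388, with 3 of them higher and Pax7 lower. The immune marker Cd68 had 92 counts against 54. In bulk RNA fewer myotubes and less RNA per myotube cannot be told apart, and the part of these markers in the values above was not tested.

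**Figure D4:**
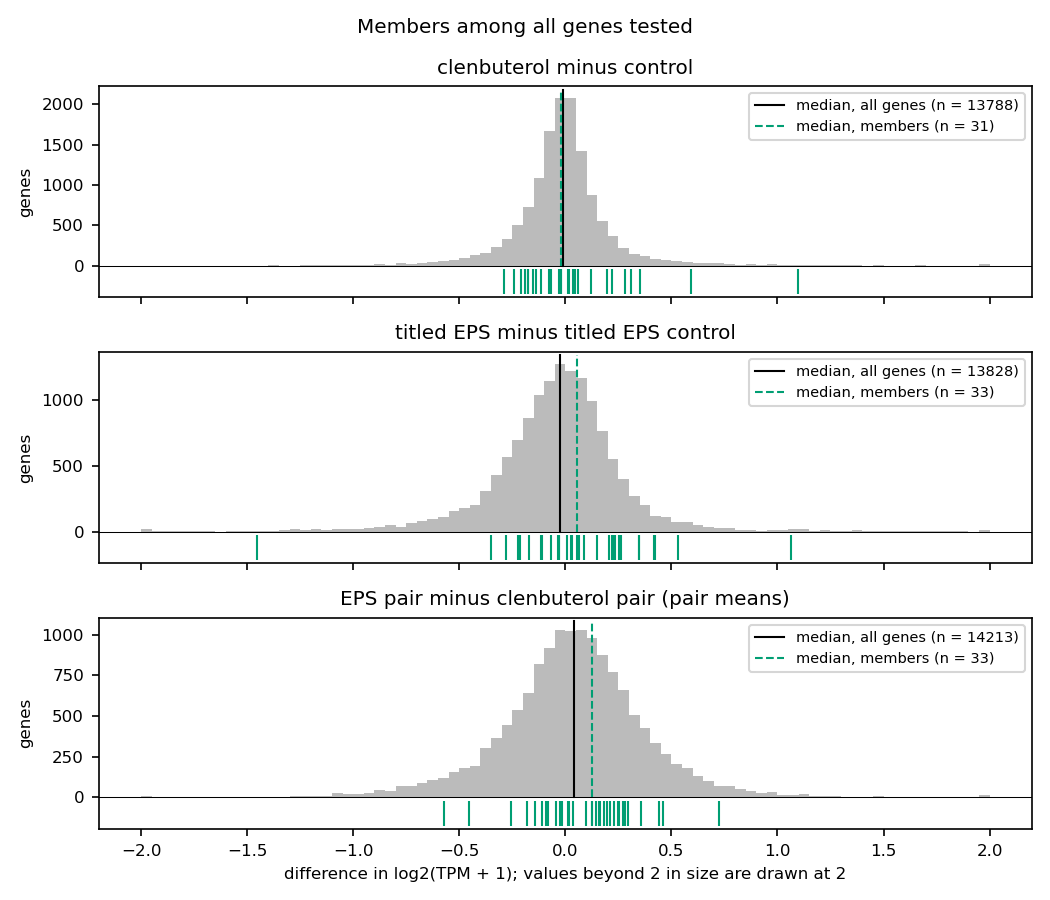
Histograms of the difference in log2(TPM + 1) over all genes tested for the 3 comparisons, with the number of genes on the vertical axis, values beyond 2 in size drawn at 2, and 1 green tick below for each of the 38 genes that passed the filter. The members' medians (dashed) of −0.02, 0.05 and 0.13 lie near those of all genes (solid) at −0.01, −0.02 and 0.04.

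The third comparison set the EPS pair of libraries against the clenbuterol pair, and it does not depend on the conflict of titles. It uses the same 4 libraries as the other comparisons and is not independent of them, and the labels do not say whether the pairs were cultured together. No gene of the 33 measured differed by 1.5-fold between the nearest libraries of the pairs, where 1.84% of all 14213 genes did so upward in the EPS pair and 1.45% downward. Without a size limit, both EPS libraries lay above both clenbuterol libraries for 16 of 33 genes (48.5%) and below for 4 (12.1%), against 34.7% and 25.1% of all genes. In CPM these were 13 and 7 genes, against 30.7% and 29.0% of all genes. The median difference of the pair means was 0.13 in log2, against 0.04 over all genes.

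The genes higher in the EPS pair in TPM included the 4 abundant class I chain genes, of which B2m overlapped between the pairs in CPM. B2m, H2-K1, H2-D1 and H2-T23 had differences of pair means of 0.15, 0.23, 0.20 and 0.25. The largest among genes reaching a TPM of 5 were Stat2 at 0.46, Dtx3l at 0.44 and Ddx58 at 0.36. The 4 genes lower in the EPS pair were Irf7 (−0.57), Ifi35 (−0.46), Bst2 (−0.18) and Xaf1 (−0.14), which encodes an antagonist of apoptosis inhibitors. Cell markers also differed between the pairs. Of the 7 myotube markers 6 were lower in both EPS libraries, with a summed TPM of 9704 to 13934 against 14703 to 15488, and the 3 dividing cell markers were higher, 200.3 to 221 against 135 to 144. The 4 markers of undifferentiated myoblasts summed to 388 to 490 against 628 to 641, with Myod1 and Cdh15 lower in the EPS pair and Myf5 higher. Their part in these values was not tested.

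H2-Q6 and H2-Q7, the genes with the largest ratios, form a pair of similar class I genes side by side on mm10 chromosome 17, at 35424850 to 35430055 and 35439140 to 35443773. H2-Q6 had 36 counts with clenbuterol, 0 in that control, 38 in the library titled EPS and 0 in its control by title. H2-Q7 had 0, 0, 0 and 37 counts. Each library thus had counts for 1 of the genes or for neither, and whether reads moved between them was not tested. Their sum was 36, 0, 38 and 37 counts, so that in the EPS pair it was 1.08-fold lower by title (0.667 to 1.74). There H2-Q6 alone was 11.4-fold higher and H2-Q7 13.7-fold lower, with the library at 0 set to a floor of 3 counts. The counting intervals of these 2 ratios began at 8.85-fold and 10.6-fold. With H2-Q4, at 206, 246, 267 and 170 counts, the sum was 242, 246, 305 and 207. That sum was 1.01-fold higher with clenbuterol (0.844 to 1.21) and 1.33-fold higher by title in the EPS pair (1.11 to 1.59). Values of the single genes are therefore uncertain, and summing them leaves 1 gene past 1.5-fold with clenbuterol (Ifit3) and none in the EPS pair.

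**Figure D5:**
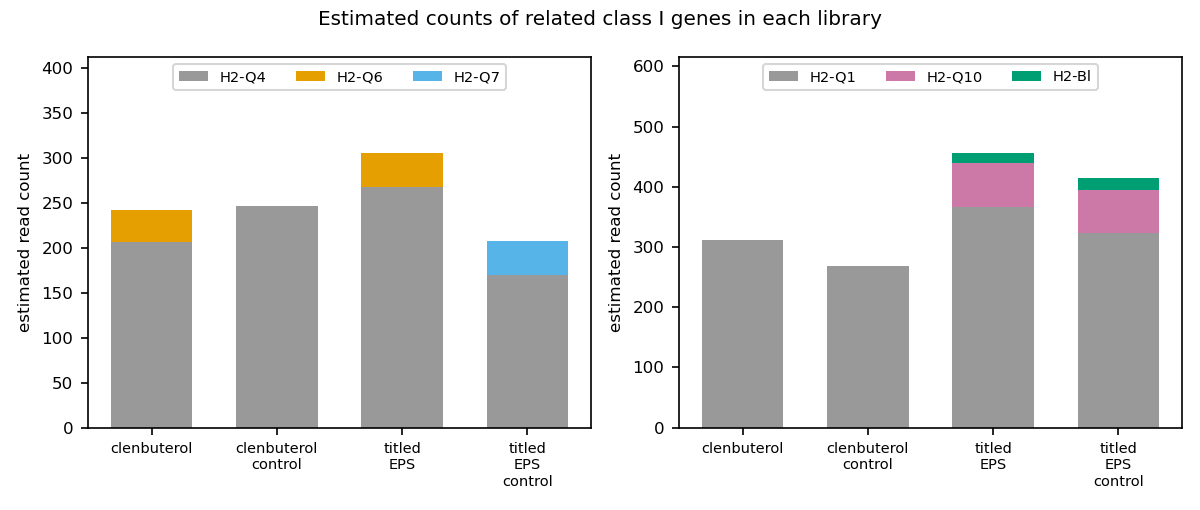
Stacked estimated read counts in each library for H2-Q4, H2-Q6 and H2-Q7 (left) and for H2-Q1, H2-Q10 and H2-Bl (right). H2-Q6 has counts in the clenbuterol library and the library titled EPS and H2-Q7 in the library titled EPS control, and H2-Q10 and H2-Bl have counts in the 2 EPS libraries only.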

How the data were processed

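Values were those the authors deposited: 1 table of the series with read counts, FPKM and TPM per gene, and 1 TPM table per library. Reads were aligned with HISAT2 to mm10, per the submitters' processing notes. Not given in the sources used here were the version, the annotation, the counting program and its use of strand, so the deposited counts are treated as estimated counts. The deposited TPM and FPKM are scaled per length and depth. TPM of the 38 genes agreed between both kinds of table within 0.001.

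Computed here were log2 ratios of TPM + 1, kept for genes reaching a TPM of 1 in any library compared, and CPM from the counts and TMM factors (edgeR 4.0.16, R 4.3.3) with exact Clopper-Pearson 95% intervals. These intervals and the floor of 3 counts cover counting error only. Scripts ran in Python 3.11.15 with pandas 2.3.3 and scipy 1.17.1 and were tested on simulated data. The 38 genes and the lists were chosen with earlier results of these data known. The naming rule gave values per library to genes past 1.5-fold that reach a TPM of 5 (none did), the most abundant gene of each role, transcription factors, Ifih1 and Ddx58. For the wider lists, the highest and lowest ratios and Socs1 and the interferon receptors were named. Some items are not reported here. Other genes named with values were chosen after their values were seen. The list entry Mb21d1 was matched to Cgas through RefSeq synonyms. Alternatives were other pseudocounts, filters, units, scalings and folds. Numbers of genes whose pairs do not overlap in CPM were added after seeing the data.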

Additional observations from a re-analysis of the deposited data

How the results depend on the processing

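No paired analysis was possible because each group holds 1 library. For clenbuterol, the number of genes at least 1.5-fold higher was 2, and it was 0 with a pseudocount of 5, with a filter at a TPM of 5 and in FPKM. It was 1 in CPM + 1 under each of the 3 scalings, at 2-fold, and with H2-Q4, H2-Q6 and H2-Q7 summed. The number lower was 0 in all settings run. For the EPS pair, the number higher was 1 by title. It was 3 with a pseudocount of 0.1 and in CPM + 1 under each of the 3 scalings, which added Oasl2 and Ifih1, and 2 without a filter, which added Usp18. It was 0 with a pseudocount of 5, a filter at a TPM of 5, in FPKM and with the 3 genes summed. The number lower was 1, and 0 with a pseudocount of 5, a filter at a TPM of 5 and the 3 genes summed. Between the pairs the numbers were 0 in all settings run. Median log2 ratios ran from −0.07 to 0.00 for clenbuterol, from 0.03 to 0.10 for the EPS pair and from 0.07 to 0.15 between the pairs. Depth limits the scarce genes most, as the widths of the counting intervals of Rsad2, Usp18 and Nlrc5 show, and with 1 library per group the spread between cultures is unknown.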

Other observations

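Among class I genes outside the 38, H2-Q10 and H2-Bl separated the pairs of libraries. H2-Q10, which encodes a secreted class I molecule, had 0 counts in both clenbuterol libraries against 72 (titled EPS) and 70 (titled EPS control). H2-Bl had 0 and 0 counts against 17 and 21. H2-Q1, a relative at a higher level, had 311, 268, 367 and 324 counts, and H2-Q2 had 24, 24, 37 and 33. These genes are alike in sequence, and whether reads moved between them was not tested.

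A list of further class I and assembly genes also holds H2-Ke6, an enzyme gene of the MHC region that is not a class I gene. Of the 17 listed genes measured with clenbuterol, 5 were higher by counting interval and 1 lower, against 17.7% and 13.9% of all genes. In the EPS pair 7 of 20 were higher by title and 1 lower, against 25.0% and 25.3%. H2-Ke6 was among neither the higher nor the lower genes. Erap1, which trims peptides, had a TPM of 14.3, 12.5, 20.8 and 15.7, and was 1.33-fold higher by title in the EPS pair (1.23 to 1.43). The proteasome activator genes Psme1 and Psme2 were 1.28-fold (1.17 to 1.40) and 1.24-fold higher (1.17 to 1.32) there. Psme2b, a copy of Psme2, had 33 counts with clenbuterol and 64 in its control (1.88-fold lower, 1.22 to 2.96), while Psme2 had 1841 and 1780. H2-DMa, an editor of class II peptides, was the only class II gene measured above a TPM of 1, and was 1.80-fold lower by title (1.39 to 2.33) on 100 counts against 162. Ikbke, a kinase that activates IRF3, had a TPM of 6.91 and 7.58 in the EPS pair against 4.03 and 4.36 in the clenbuterol pair.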
